A study of Homo sapiens with 4 samples.

Results

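Heat shock proteins, DNAJ cochaperones and chaperonins are the protein-folding machinery of the cell, and 104 of the 50868 genes in the files belonged to it. Members were chosen by gene name alone: the HSPA, HSPB, HSPD, HSPE, HSPH and HSP90 names, the DNAJA, DNAJB and DNAJC names, the CCT subunits and TCP1, the heat shock factors HSF1 and HSF2, and BAG1 to BAG6. Of 203 names with these beginnings, 99 were left out because they contain a hyphen (8 names) or end in P and a number, the form of most numbered pseudogenes. TCP1 also ends in that way and was kept, since it is spelled out among the names. In GENCODE release 44, 90 members are protein-coding, 8 are processed pseudogenes, 5 are transcribed processed pseudogenes and 1 is an unprocessed pseudogene.

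Jurkat, an established line grown from a human T-cell leukemia and labelled wild type here, was profiled by RNA-seq with 1 library for each of 4 conditions. The cells were kept for 24 h in DMSO, the solvent control, in 0.5 μM JQ1, in DMSO with 150 ng/ml PHA, or in 0.5 μM JQ1 with 150 ng/ml PHA. JQ1 occupies the acetyl-lysine pocket of the BET bromodomain proteins, and PHA (phytohemagglutinin) is a plant lectin that stimulates T cells. With 1 library per condition there is no estimate of the spread between cultures, so no test between conditions was made. Unless named otherwise, an interval is a 95% exact (Clopper-Pearson) interval of the ratio of 2 shares of counts and covers counting error only. A log2 ratio followed by such an interval in parentheses is always that of the share of counts, and log2 ratios of FPKM are named as such.

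HSP70 proteins (HSPA) bind short hydrophobic stretches of unfolded chains in an ATP cycle that DNAJ proteins start and that BAG and HSP110-type proteins (HSPH1, HSPA4, HSPA4L) reset by exchanging the nucleotide. HSP90 proteins finish the folding of kinases and receptors, the small HSPB proteins hold aggregation-prone chains, HSPD1 with its lid HSPE1 folds proteins in mitochondria, and the TRiC ring of TCP1 and CCT subunits folds actin and tubulin. HSF1 is the transcription factor that induces many of these genes when unfolded proteins accumulate.

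Total counts were 18620954 to 19685401 per library, and mitochondrial genes took 6.27% to 7.07% of them. All 10 T-cell markers examined, CD3D, CD3E and LCK among them, were above 3 counts in every library. Their summed FPKM (counts scaled by gene length and library total) was 384 in DMSO, 262 in JQ1, 469 in DMSO + PHA and 273 in JQ1 + PHA. The summed FPKM of 12 markers of B cells, monocytes, erythroid, epithelial and fibroblast cells was 8.12, 1.85, 7.10 and 1.74 in the same order, with 4 to 8 of them at 0. CD79A, a B-cell gene, made up most of it and was at 7.48 FPKM in DMSO and 1.06 in JQ1. The part of these marker levels in the results below was not tested.

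Of the 104 members, 67 passed the filter of a mean FPKM of at least 1 that 11503 genes of the files passed, and 37 did not. Of those under the filter, 10 had no count in any library, the testis gene DNAJB13 and the muscle gene HSPB7 among them, and 21, these 10 included, had 3 counts or fewer in every library. The members took 3.02% of all counts in DMSO and 2.75% in DMSO + PHA, but 1.84% in JQ1 and 1.83% in JQ1 + PHA. In summed FPKM, their share was 1.95%, 1.18%, 1.80% and 1.16% in DMSO, JQ1, DMSO + PHA and JQ1 + PHA. The chaperone share of the counts was thus lower in both JQ1 libraries than in either library without it, with or without PHA. In bulk RNA, fewer cells with these transcripts and less of them per cell cannot be told apart.

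A few genes carried most of this RNA. In DMSO, HSP90AB1, HSP90AA1, DNAJA1, HSPD1 and HSPA8 had the highest FPKM of the members, in that order, and together held 55.8% of the members' counts. The same 5 genes in the same order led in FPKM in both JQ1 libraries, with 53.1% and 52.6% of the members' counts, and in DMSO + PHA HSPA5 stood ahead of HSPA8. This order depends on the gene length behind the FPKM, whose source is not given, and differs from the order in counts. In DMSO, DNAJA1 had 17405 counts, HSPD1 44574 and HSPA8 51334. In JQ1, HSP90AA1 had 81654 and HSP90AB1 45847. For HSPA8, HSPE1 and some other members, BAG5 and HSPB1 among them, that length is longer than the whole extent of the gene. The length is the same in all libraries, so ratios of a gene between libraries do not depend on it. The plot of levels shows the 38 members at a mean FPKM of 10 or more.

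Counted over all members, 11 of the 67 past the filter were 2-fold lower or more in JQ1 than in DMSO, and 0 were 2-fold higher, on the scale of the log2 ratio of FPKM after 0.1 was added to each value. Of all 11503 genes tested, 8.65% were 2-fold lower and 5.22% were 2-fold higher. At 1.5-fold, 26 members were lower and 3 higher, against 19.3% and 14.8% of all genes. The median log2 ratio was -0.28 over the members and -0.01 over all genes. The gene next inside the 2-fold line was DNAJC17 at -1.09 and the next outside it was CCT6A at -0.95.

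In JQ1 + PHA against DMSO + PHA, 7 members were at least 2-fold lower and 1, BAG3, was at least 2-fold higher, where 8% and 3.69% of all genes were. At 1.5-fold, 21 were lower and 2 higher, with 17.8% and 11.7% of all genes. The median was -0.34 over the members and -0.02 over all genes. HSP90B1 at -1.05 was the last gene inside the line and CCT3 at -0.86 the first outside it. With PHA present, 7 of 67 is near the share of all genes at 2-fold, and with TMM scaling, DESeq2 size factors or a pseudocount of 1 it was 6 of 67. At 1.5-fold the members' share was above that of all genes in both comparisons. Of the 67 members, 16 share over 10% of their 50-base windows with another gene, and without them 5 of 51 and 3 of 51 were 2-fold lower, shares near or below those of all genes at that fold. HSP90AB1, HSPD1 and HSPE1 are among the 16, and what the shared sequence contributes to their ratios was not tested.

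PHA itself was followed by small differences. In DMSO + PHA against DMSO, 0 members were 2-fold higher and 0 were 2-fold lower, where 2.1% and 1.19% of all genes were. At 1.5-fold 1 member was higher and 0 were lower, with 5.59% and 3.83% of all genes, and the median log2 ratio of FPKM was -0.08. In JQ1 + PHA against JQ1, again 0 were 2-fold higher and 0 were 2-fold lower, where 1.04% and 1.03% of all genes were. At 1.5-fold 1 was higher and 0 were lower, with 2.58% and 3.05% of all genes, and the median was -0.01.

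**Figure D1:**
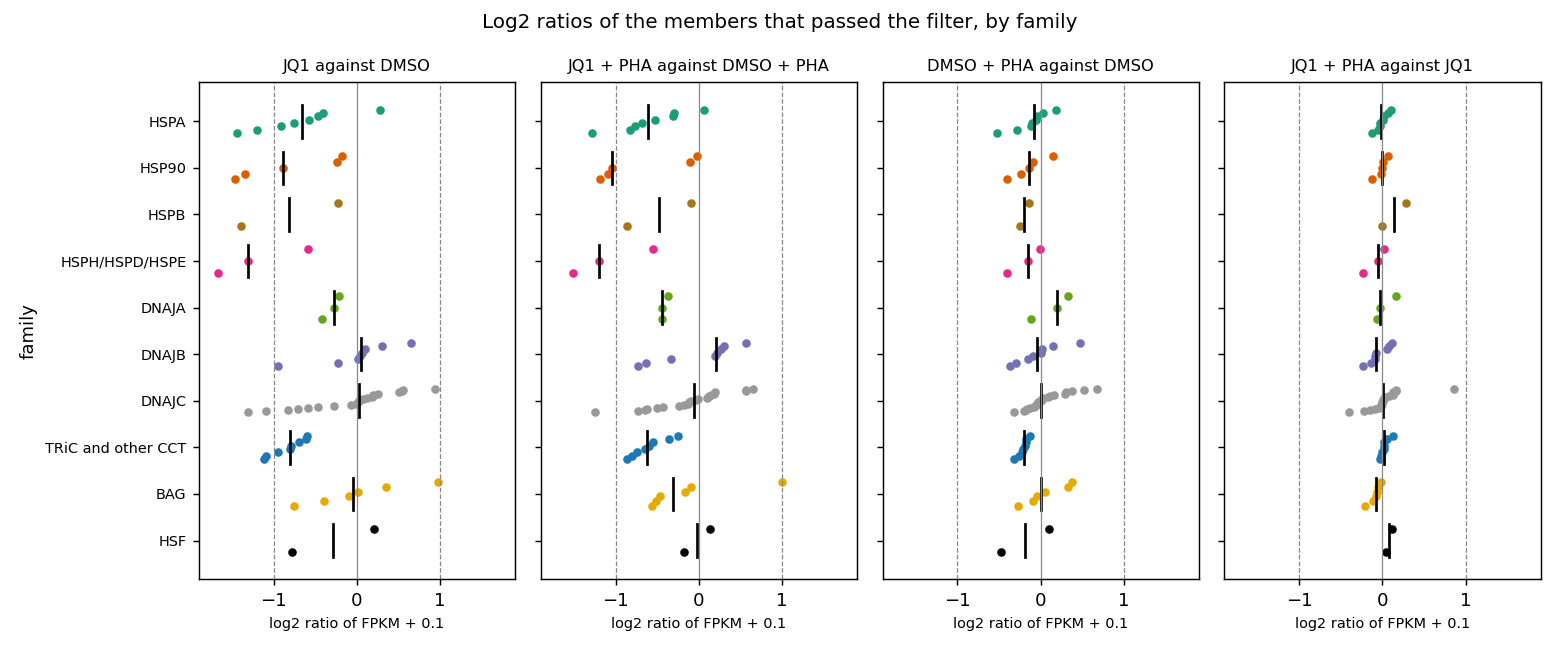
Log2 ratio of FPKM after 0.1 was added (x axis) for the 67 members that passed the filter, 1 point per gene, by family (rows) and comparison (panels), with a black bar at the family's median and dashed lines at 2-fold. In the JQ1 panels the HSP90, HSPA, HSPH/HSPD/HSPE and TRiC genes lie mostly left of 0 and the DNAJB and DNAJC genes on both sides, while in the PHA panels no gene reaches 2-fold.

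HSP90 is the family with the highest single level. HSP90AB1, the constitutively made cytosolic HSP90, had an FPKM of 1511 in DMSO, 594 in JQ1, 1281 in DMSO + PHA and 599 in JQ1 + PHA. Both JQ1 libraries lay below both libraries without JQ1, 2.54-fold in the absence and 2.14-fold in the presence of PHA. The log2 ratio of its share of counts was -1.35 (-1.36 to -1.33) for JQ1 against DMSO and -1.10 (-1.11 to -1.08) for JQ1 + PHA against DMSO + PHA.

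HSP90AA1, the heat-inducible cytosolic HSP90, stood nearly level across the libraries, at an FPKM of 548 in DMSO, 463 in JQ1, 498 in DMSO + PHA and 461 in JQ1 + PHA. Its log2 ratio of the share of counts was -0.24 (-0.26 to -0.23) with JQ1 alone and -0.11 (-0.12 to -0.10) with JQ1 in the presence of PHA. The FPKM ratio of HSP90AB1 to HSP90AA1 was 2.76 in DMSO and 2.57 in DMSO + PHA, but 1.28 in JQ1 and 1.30 in JQ1 + PHA. The size of this ratio depends on the gene lengths used. In counts, HSP90AB1 stood above HSP90AA1 in DMSO (111413 and 92419) and in DMSO + PHA (98887 and 87854). It stood below HSP90AA1 in JQ1 (45847 and 81654) and in JQ1 + PHA (43721 and 76964).

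Both cytosolic HSP90 genes carry a strict heat shock element, the binding motif of HSF1, in the RefSeq promoter window of 250 bases before to 50 after the start (GRCh38.p14). The motif searched was GAA, TTC and GAA in alternation with 2 bases of any kind between them, or TTC, GAA and TTC in the same spacing, on both strands. It was found in 7 of the 79 members in the promoter table (8.86%) and in 166 of all 27305 genes of the table (0.608%). Of genes that passed the FPKM filter, 6 of 58 members (10.3%) and 38 of all 7630 (0.498%) had it. The 7 were DNAJA1, DNAJB6, HSP90AA1, HSP90AB1, HSPA6, HSPA8 and HSPD1. Stretches around the matches outside annotated exons follow, on the strand of the gene and with the element in capitals, for the HSP90 pair, for HSPA6, which is made almost only under stress, and for DNAJB6, which keeps aggregation-prone proteins soluble.
HSP90AB1: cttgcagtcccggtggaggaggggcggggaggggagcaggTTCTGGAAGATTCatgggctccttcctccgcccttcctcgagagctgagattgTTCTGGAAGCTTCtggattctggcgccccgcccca
HSP90AA1: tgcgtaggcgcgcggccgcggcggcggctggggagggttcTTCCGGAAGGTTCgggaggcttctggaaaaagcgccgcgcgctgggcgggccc
HSPA6: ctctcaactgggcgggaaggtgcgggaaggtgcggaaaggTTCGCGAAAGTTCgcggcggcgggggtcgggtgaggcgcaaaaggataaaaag
DNAJB6: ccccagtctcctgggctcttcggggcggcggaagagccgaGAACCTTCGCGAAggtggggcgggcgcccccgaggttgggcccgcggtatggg

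The HSP90AB1 stretch is chr6:44247738-44247865 on the plus strand and holds 2 elements between positions -165 and -100 from the RefSeq start. It lies outside annotated exons of the gene but within its extent in the files, chr6:44246166-44253888. The HSP90AA1 stretch is chr14:102087080-102087172 on the minus strand, with 1 element from -88 to -76, and lies likewise within the extent of the gene, chr14:102080738-102139699. The HSPA6 stretch is chr1:161524426-161524518 and the DNAJB6 stretch chr7:157336833-157336925, both on the plus strand, with the element from -74 to -62 and from -131 to -119. The ratios of the genes with an element did not move as one. With JQ1, HSP90AB1 and HSPD1 were more than 2-fold lower, HSPA8, DNAJA1 and HSP90AA1 were lower by less, and DNAJB6 had a log2 ratio of 0.10 (0.02 to 0.18). The median log2 ratio of FPKM for JQ1 against DMSO was -0.59 over the 6 members with an element that passed the filter and -0.28 over the 52 without one. With PHA present these medians were -0.53 and -0.40. A member without a strict match may hold an element of another form or outside the window, which was not searched. HSPE1 counts as without one, although the HSPD1 elements, at chr2:197500068-197500085, lie before the HSPE1 start at 197500379, outside its window.

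HSP90B1 (GRP94), the HSP90 of the endoplasmic reticulum, had an FPKM of 108 in DMSO, 58.2 in JQ1, 119 in DMSO + PHA and 57.7 in JQ1 + PHA. Its log2 ratio of the share of counts was -0.89 (-0.92 to -0.85) with JQ1 alone and -1.05 (-1.09 to -1.01) with JQ1 in the presence of PHA, and only the latter passed 2-fold. The processed pseudogenes HSP90AB3P and HSP90AA2P followed the genes they copy. HSP90AB3P was at 3.4, 1.17, 2.55 and 1.06 FPKM in DMSO, JQ1, DMSO + PHA and JQ1 + PHA, and HSP90AA2P at 30.9, 27.1, 28.9 and 28.4. Of the 50-base windows of HSP90AB3P, 19.96% are also in other genes, HSP90AB1 most of all. For HSP90AA2P this share is 20.4%, with HSP90AA1 holding the most. Reads of each pair may thus have been split between gene and copy.

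HSP70 genes were lower with JQ1 in 7 of the 8 members that passed the filter, whether PHA was present or not. Of all 11503 genes, 5838 were lower without and 5923 with PHA. HSPA5 (BiP, chr9:125234853-125241330), the HSP70 of the endoplasmic reticulum, had an FPKM of 192 in DMSO, 83.1 in JQ1, 195 in DMSO + PHA and 80.2 in JQ1 + PHA. Its log2 ratio of the share of counts was -1.20 (-1.25 to -1.16) and -1.28 (-1.33 to -1.24) in the comparisons without and with PHA, more than 2-fold lower in both. HSPA8 (HSC70), the constitutive cytosolic HSP70, had an FPKM of 193 in DMSO, 115 in JQ1, 180.2 in DMSO + PHA and 112 in JQ1 + PHA and log2 ratios of -0.75 (-0.77 to -0.73) and -0.69 (-0.71 to -0.67). In FPKM, HSPA5 and HSPA8 were level in DMSO, with a ratio of HSPA8 to HSPA5 of 1.01, but in JQ1 HSPA8 was 1.38 times HSPA5. The size of this ratio depends on the gene lengths used, and in counts HSPA8 stood well above HSPA5. HSPA8 and HSPA5 had 51334 and 14081 counts in DMSO and 31855 and 6391 in JQ1. HSPA9 (mortalin), the mitochondrial HSP70, had 131, 69, 119.9 and 70.2 FPKM in DMSO, JQ1, DMSO + PHA and JQ1 + PHA, with log2 ratios of -0.92 (-0.95 to -0.88) and -0.77 (-0.81 to -0.74).

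HSPA1A and HSPA1B encode the major heat-inducible HSP70 in nearly the same sequence. HSPA1B had an FPKM of 11.8 in DMSO, 4.25 in JQ1, 8.16 in DMSO + PHA and 4.56 in JQ1 + PHA, the widest relative fall of the HSP70 genes that passed the filter with JQ1 alone, and its log2 ratio of the share of counts was -1.47 (-1.70 to -1.24). With PHA present the ratio was -0.84 (-1.09 to -0.60), short of 2-fold. HSPA1A, under the filter, had 44 counts in DMSO, 25 in JQ1, 36 in DMSO + PHA and 15 in JQ1 + PHA. Of the 50-base windows of HSPA1B, 73.6% are also in other genes, HSPA1A most of all. How reads were divided between HSPA1A and HSPA1B thus depends on the counting. Their summed counts were 602 in DMSO, 236 in JQ1, 441 in DMSO + PHA and 229 in JQ1 + PHA. The sum was, like HSPA1B alone, lower in both JQ1 libraries than in both others.

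The stress-only gene HSPA6 was near the limit of detection, with 31 counts in DMSO, 0 in JQ1, 17 in DMSO + PHA and 5 in JQ1 + PHA. Against the floor of 3 counts in the JQ1 library it was at least 10.8-fold lower with JQ1 than in DMSO, and with PHA present the log2 ratio of its share of counts was -1.69 (-3.48 to -0.19). The HSP110-type genes HSPA4, HSPA4L and HSPH1 were lower by less than 2-fold. HSPA4 had 92, 61.9, 89.4 and 61.9 FPKM in DMSO, JQ1, DMSO + PHA and JQ1 + PHA, and HSPH1 had 25.9, 17.3, 25.8 and 17.5, with log2 ratios of -0.59 (-0.64 to -0.53) and -0.56 (-0.61 to -0.51). HSPA13, an HSP70 of the endoplasmic reticulum, was the exception among HSP70 genes, at 22.8, 27.7, 26 and 27.2 FPKM and log2 ratios of 0.28 (0.19 to 0.37) and 0.06 (-0.03 to 0.15), the second with an interval that includes 0. HSPA2, an HSP70 best known from testis and under the filter, had 31, 5, 50 and 18 counts in DMSO, JQ1, DMSO + PHA and JQ1 + PHA.

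The mitochondrial chaperonin pair was more than 2-fold lower in both JQ1 comparisons. HSPD1 (HSP60), the barrel of this folding chamber, had an FPKM of 296 in DMSO, 119.6 in JQ1, 265 in DMSO + PHA and 116 in JQ1 + PHA, 2.47-fold lower with JQ1 alone and 2.29-fold lower with JQ1 in the presence of PHA. HSPE1 (HSP10), its lid, had an FPKM of 57.2 in DMSO, 17.8 in JQ1, 43.2 in DMSO + PHA and 15.1 in JQ1 + PHA, 3.21-fold and 2.87-fold lower. For HSPE1 the log2 ratio of the share of counts was -1.68 (-1.77 to -1.60) and -1.52 (-1.62 to -1.42), the lowest of all members that passed the filter. The genes are divergent neighbours, with RefSeq starts 105 bases apart for the nearer HSPD1 start, and HSPE1 (chr2:197499994-197503457, plus strand) lies within the extent of HSPD1 in the files (chr2:197486581-197516737, minus strand). The FPKM ratio of HSPD1 to HSPE1 was 5.17 in DMSO, 6.71 in JQ1, 6.13 in DMSO + PHA and 7.66 in JQ1 + PHA. The size of this ratio depends on the gene lengths used, but its change between libraries does not. Of the 50-base windows of HSPE1, 48.2% are also in other genes. The read-through gene HSPE1-MOB4 holds the most of them. It had 102 to 156 counts in the libraries, against 1151 to 4410 for HSPE1. The part of the shared windows in further genes was not separated.

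Of the small heat shock proteins, 2 of 8 passed the filter. HSPB1 (HSP27), a heat-inducible holding chaperone, had an FPKM of 10.5 in DMSO, 3.94 in JQ1, 8.83 in DMSO + PHA and 4.83 in JQ1 + PHA, with log2 ratios of the share of counts of -1.42 (-1.67 to -1.18) without and -0.87 (-1.11 to -0.64) with PHA, and passed 2-fold only in the first. HSPB11, which despite its name is a component of intraflagellar transport, had 13.8, 11.7, 12.5 and 11.7 FPKM in DMSO, JQ1, DMSO + PHA and JQ1 + PHA. The other 6 had 6 counts or fewer in each library.

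The TRiC ring folds actin and tubulin in the cytosol. All 8 of its subunits were at least 1.5-fold lower with JQ1 alone, as were 19.3% of all genes. TCP1 lay on that line and fell just short of it with a pseudocount of 1 and under each of the other scalings, and CCT7 fell short with FPKM rescaled to a common total and with DESeq2 size factors. The mean FPKM of the 8 was 104.6 in DMSO, 59.1 in JQ1, 91.0 in DMSO + PHA and 59.7 in JQ1 + PHA. TRiC is built of stacked rings that hold each subunit once. In FPKM, CCT4 was the highest and TCP1 the lowest in every library, 2.34-fold apart in DMSO and 2.03-fold in JQ1. The coefficient of variation of FPKM over the 8 genes lay between 23.4% and 27.6%. This spread depends on the gene lengths used, and counts gave another order. CCT4 had 11471, 6896, 10651 and 6438 counts in DMSO, JQ1, DMSO + PHA and JQ1 + PHA, and TCP1 had 12552, 8685, 10483 and 8330. CCT3 had an FPKM of 90.4 in DMSO, 41.4 in JQ1, 78.1 in DMSO + PHA and 43 in JQ1 + PHA and CCT5 had 93.8 in DMSO, 43.9 in JQ1, 80.1 in DMSO + PHA and 47.9 in JQ1 + PHA, and these were the subunits that passed 2-fold with JQ1 alone.

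The log2 ratios of FPKM of the 8 subunits for JQ1 against DMSO ran from -1.12 for CCT3 to -0.59 for TCP1, with a median of -0.80. With PHA present they ran from -0.86 for CCT3 to -0.25 for TCP1, with a median of -0.62. Then 5 of 8 remained at least 1.5-fold lower, as were 17.8% of all genes. TCP1, at an FPKM of 62.6 in DMSO, 41.4 in JQ1, 50.01 in DMSO + PHA and 42 in JQ1 + PHA, had already a lower level in DMSO + PHA than in DMSO, with a log2 ratio of its share of counts of -0.33 (-0.36 to -0.29). CCT6A at 112, 58.2, 99.6 and 56.8, CCT8 at 115, 65.9, 101 and 66.8, CCT4 at 146, 84.1, 129.9 and 83, CCT2 at 98.4, 60.7, 89.9 and 61.5 and CCT7 at 118, 77.1, 98.6 and 76.8 FPKM in DMSO, JQ1, DMSO + PHA and JQ1 + PHA completed the ring, each with both JQ1 libraries below both others. CCT6B, a testis form of CCT6A under the filter, went the other way, with 22, 46, 33 and 55 counts in the same order and a log2 ratio of 1.0 (0.24 to 1.80) with JQ1 alone. The testis gene CCT8L2 and the pseudogene CCT8L1P had no count.

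J-domain proteins, which hand clients to HSP70, did not share one direction. Of the DNAJA genes, DNAJA1, the most abundant cytosolic member, had an FPKM of 304 in DMSO, 227 in JQ1, 279.9 in DMSO + PHA and 217 in JQ1 + PHA and log2 ratios of -0.42 (-0.46 to -0.39) and -0.37 (-0.40 to -0.33) without and with PHA. DNAJA2, also cytosolic, had 16.5, 14.1, 18.9 and 13.9 FPKM in DMSO, JQ1, DMSO + PHA and JQ1 + PHA, and DNAJA3, a mitochondrial member, had 7.49, 6.15, 9.44 and 6.9. All 3 were lower with JQ1 in both comparisons, each by less than 1.5-fold, and 4891 of all 11503 genes were lower in both.

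Among the DNAJB genes, DNAJB1 (HSP40), the heat-inducible partner of HSP70, stood at an FPKM of 35.9 in DMSO, 18.59 in JQ1, 29.3 in DMSO + PHA and 17.6 in JQ1 + PHA, with log2 ratios of the share of counts of -0.95 (-1.01 to -0.88) and -0.73 (-0.80 to -0.66). DNAJB2, best known from neurons, was the highest of the family in ratio, at 1.27, 2.05, 1.42 and 2.16 FPKM in DMSO, JQ1, DMSO + PHA and JQ1 + PHA and log2 ratios of 0.69 (0.51 to 0.87) and 0.60 (0.43 to 0.78). Of the 8 DNAJB genes that passed the filter, 6 were higher with JQ1 alone and 5 with PHA present. Of all 11503 genes, 5664 and 5577 were higher. The family's median log2 ratio of FPKM was 0.05 and 0.20. DNAJB5, under the filter, had 67 counts in DMSO, 297 in JQ1, 84 in DMSO + PHA and 152 in JQ1 + PHA, with log2 ratios of 2.08 (1.70 to 2.49) for JQ1 alone and 0.94 (0.54 to 1.34) in the presence of PHA.

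The DNAJC genes were the most spread, with log2 ratios of FPKM from -1.31 to 0.94 for JQ1 against DMSO and a median of 0.03 over 22 genes. DNAJC2, a chaperone of the ribosome that acts on new chains, had an FPKM of 13.5 in DMSO, 5.4 in JQ1, 13 in DMSO + PHA and 5.41 in JQ1 + PHA, with log2 ratios of -1.32 (-1.43 to -1.22) and -1.27 (-1.38 to -1.16), more than 2-fold lower in both. Its HSP70 partner on the ribosome, HSPA14, had 19.6, 14.7, 18.8 and 15.4 FPKM in DMSO, JQ1, DMSO + PHA and JQ1 + PHA and a log2 ratio of -0.42 (-0.51 to -0.32) with JQ1 alone. DNAJC17, a nuclear member linked to splicing, had 3.67, 1.67, 2.93 and 1.87 FPKM and log2 ratios of -1.14 (-1.36 to -0.92) and -0.65 (-0.88 to -0.42), past 2-fold only without PHA.

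DNAJC1, a membrane protein of the endoplasmic reticulum, stood at the other end, with an FPKM of 4.48 in DMSO, 8.66 in JQ1, 5.86 in DMSO + PHA and 8.74 in JQ1 + PHA and log2 ratios of 0.95 (0.76 to 1.15) and 0.58 (0.40 to 0.75). DNAJC6 (auxilin), which uncoats clathrin vesicles with HSC70, had 3.35, 4.96, 3.41 and 5.41 FPKM in DMSO, JQ1, DMSO + PHA and JQ1 + PHA and log2 ratios of 0.57 (0.42 to 0.71) and 0.67 (0.53 to 0.80). The abundant DNAJC8, a splicing-associated member, was level in all libraries, at 45, 45.4, 45.6 and 49.7 FPKM. DNAJC12, under the filter, had 54 counts in DMSO, 4 in JQ1, 38 in DMSO + PHA and 0 in JQ1 + PHA, and was thus at or near the floor in both JQ1 libraries. With PHA present, it was at least 12-fold lower against 3 counts in JQ1 + PHA. DNAJC5G, also under the filter, had 21, 6, 29 and 4 counts in DMSO, JQ1, DMSO + PHA and JQ1 + PHA, and DNAJC28, a mitochondrial member, had 58, 112, 60 and 86.

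Of the BAG proteins, which reset HSP70, BAG3 was the only member of all 67 that was at least 2-fold higher in a JQ1 comparison. BAG3 (chr10:119651370-119677819), itself a heat-inducible gene whose protein routes clients to autophagy, had an FPKM of 11.5 in DMSO, 22.7 in JQ1, 11.2 in DMSO + PHA and 22.5 in JQ1 + PHA. Its log2 ratio of the share of counts was 0.97 (0.84 to 1.11) without and 1.01 (0.87 to 1.15) with PHA, so that it lay on the 2-fold line in both. The FPKM ratio of HSPA8 to BAG3 was 16.7 in DMSO and 16.1 in DMSO + PHA, but 5.05 in JQ1 and 4.98 in JQ1 + PHA. Its size depends on the gene lengths used, but its change between libraries does not. BAG2, an inhibitor of the ubiquitin ligase CHIP, moved the other way, at 14.8, 8.7, 12.2 and 8.21 FPKM in DMSO, JQ1, DMSO + PHA and JQ1 + PHA and log2 ratios of -0.77 (-0.88 to -0.66) and -0.57 (-0.69 to -0.46).

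HSF1, the inducer of the heat shock response, had an FPKM of 4.15 in DMSO, 2.37 in JQ1, 2.95 in DMSO + PHA and 2.59 in JQ1 + PHA. The DMSO library was the highest, and the log2 ratio of the share of counts was -0.81 (-0.95 to -0.66) for JQ1 against DMSO, -0.50 (-0.63 to -0.36) for DMSO + PHA against DMSO and -0.19 (-0.34 to -0.03) for JQ1 + PHA against DMSO + PHA. HSF2, a related factor, was near level, at 8.58, 9.89, 9.25 and 10.2 FPKM in DMSO, JQ1, DMSO + PHA and JQ1 + PHA.

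The role lists were chosen with earlier results of these data known, so they describe the levels and test nothing. Of 14 listed targets of HSF1, most are heat-inducible, but HSP90AB1 and HSPA8 are also made in quantity without stress. Of the 14, 12 passed the filter, and 11 of these were below 0 in both JQ1 comparisons, BAG3 being the exception. Of all 11503 genes, 4891 were below 0 in both. With JQ1 alone 5 of the 12 were 2-fold lower (HSP90AB1, HSPA1B, HSPB1, HSPD1 and HSPE1) and the median log2 ratio of FPKM was -0.85, and with PHA present 3 were 2-fold lower and the median was -0.71, where 8.65% and 8% of all genes were 2-fold lower. Of 8 mitochondrial members that passed, 2 were 2-fold lower in each comparison, HSPD1 and HSPE1, which the list of HSF1 targets also holds, and the median was -0.53 and -0.48. The 11 listed members of the endoplasmic reticulum had a median of 0.03 with JQ1 alone and -0.13 with PHA present. HSPA5, HSP90B1 and DNAJC10, a disulfide reductase, were at least 1.5-fold lower with JQ1 alone, while most J proteins of the list were not. DNAJC14, also of that compartment but not on the list, had log2 ratios of FPKM of -0.28 and -0.09. DNAJC10 had 5.86, 3.55, 5.66 and 3.58 FPKM in DMSO, JQ1, DMSO + PHA and JQ1 + PHA, and DNAJB11, which assists HSPA5, had 16.6, 14.2, 16.9 and 13.4.

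Mean FPKM, which depends on the gene length used, and ratio went together within the members. Of the 16 members with a mean FPKM of at least 50, a line drawn after the values were seen, 16 were below 0 in both JQ1 comparisons, with medians of the log2 ratio of FPKM of -0.84 without and -0.71 with PHA. Of the 452 genes of the files at that level, 289 and 264 were below 0, with medians of -0.20 and -0.10. Of the 51 members under 50 FPKM, 27 and 34 were below 0, with medians of -0.07 and -0.16. Spearman's rho across genes between mean FPKM and log2 ratio was -0.43 without and -0.39 with PHA over the 67 members, and 0.00 and 0.03 over all 11503 genes. This is a description across genes of the same libraries, which are not independent.

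**Figure D2:**
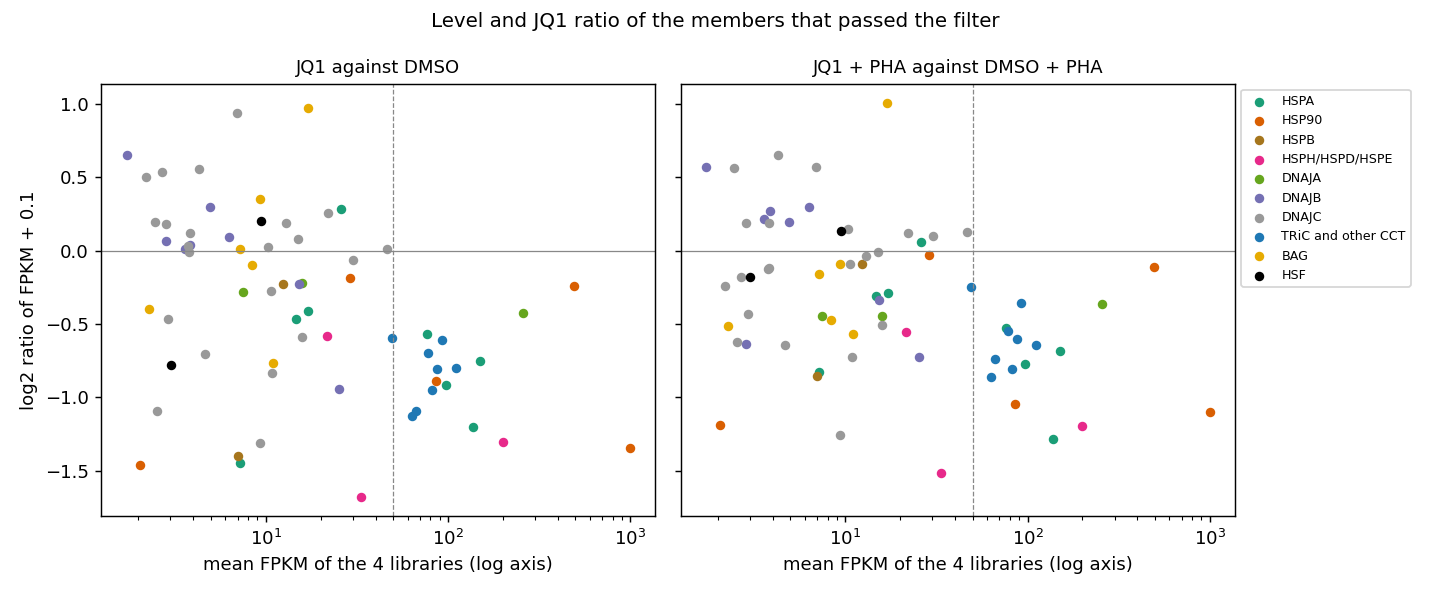
Log2 ratio of FPKM after 0.1 was added (y axis) against the mean FPKM of the 4 libraries (x axis, logarithmic) for the 67 members that passed the filter, 1 point per gene coloured by family, for JQ1 against DMSO (left) and JQ1 + PHA against DMSO + PHA (right). Right of the dashed line at 50 FPKM all 16 genes lie below 0, and left of it 27 of 51 and 34 of 51 do.

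The JQ1 ratios without and with PHA, which come from different pairs of libraries, were alike over the members. Pearson's r across the 67 genes was 0.90, and Spearman's rho 0.90, against 0.74 and 0.79 over all 11503 genes. In both comparisons 42 members were lower, in both 16 were higher, and 9 had opposite signs, while of all 11503 genes 4891 were lower in both, 4631 higher in both and 1977 of opposite signs. The 6 members 2-fold lower in both were DNAJC2, HSP90AB1, HSP90AB3P, HSPA5, HSPD1 and HSPE1, and 623 of the 11503 genes were 2-fold lower in both. For 45 of the 67 members, the ratio was closer to 0 in the presence of PHA than without it, and for all genes this was so in 6631 of 11503.

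Of the members that passed the filter, those furthest apart between the comparisons were led by DNAJC18, a poorly known J protein, at 1.71, 2.47, 2.49 and 2.1 FPKM in DMSO, JQ1, DMSO + PHA and JQ1 + PHA. Its JQ1 log2 ratio with PHA minus that without was -0.78 (-1.08 to -0.48). The intervals of these differences come from a normal approximation on the counts of all 4 libraries and cover counting error only. DNAJC30, a mitochondrial member at 2.22, 3.27, 2.78 and 2.44 FPKM, had a difference of -0.74 (-1.25 to -0.24), and DNAJB9 (ERdj4), a gene of the unfolded protein response at 2.63, 2.75, 3.68 and 2.33 FPKM, one of -0.73 (-1.13 to -0.32). In the other direction, the difference was 0.63 (0.30 to 0.96) for HSPA1B, 0.62 (0.41 to 0.83) for HSF1 and 0.55 (0.22 to 0.88) for HSPB1, whose JQ1 ratios were all closer to 0 with PHA. For HSPA5 and HSP90B1, the differences were -0.08 (-0.14 to -0.02) and -0.16 (-0.22 to -0.11). These genes of the endoplasmic reticulum were, in contrast with HSP90AB1 and HSPD1, lower with JQ1 by slightly more when PHA was present.

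**Figure D3:**
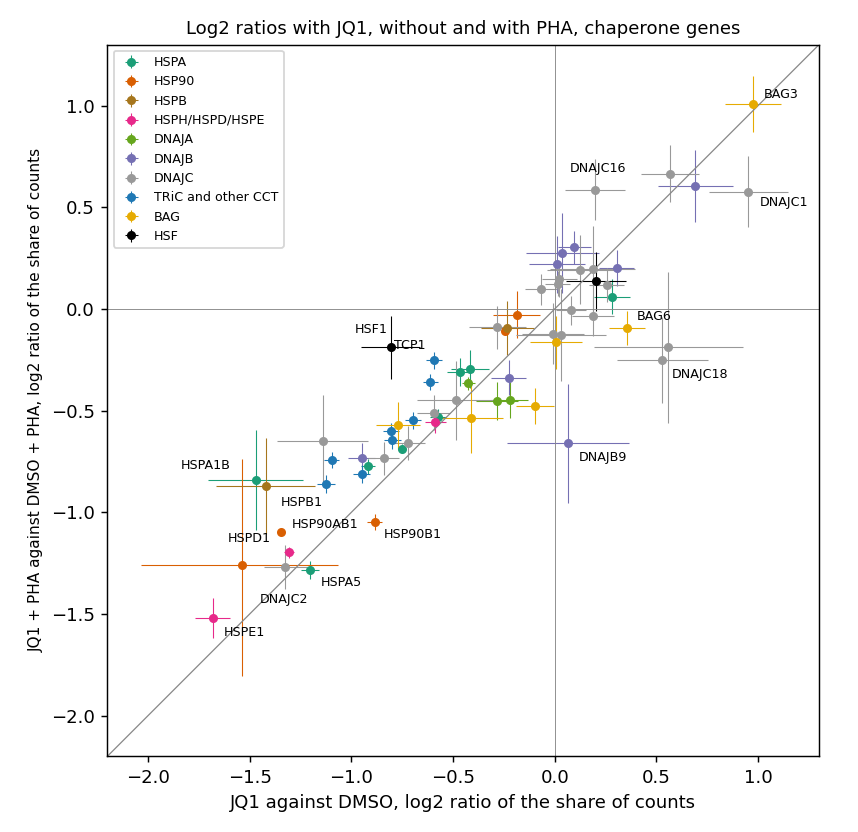
Log2 ratio of the share of counts for JQ1 against DMSO (x axis) and for JQ1 + PHA against DMSO + PHA (y axis), 1 point per member that passed the filter, coloured by family, with bars for the 95% exact counting intervals and a diagonal of equal ratios. Most points lie near the diagonal from HSPE1 at the lower left to BAG3 at the upper right, while HSF1, DNAJB9, DNAJC18 and BAG6 lie off it.

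The member past 1.5-fold with PHA was DNAJC14, a membrane protein of the endoplasmic reticulum, in both comparisons. It had an FPKM of 8.63 in DMSO, 7.09 in JQ1, 13.8 in DMSO + PHA and 13 in JQ1 + PHA, and log2 ratios of the share of counts of 0.68 (0.56 to 0.80) in DMSO and 0.87 (0.74 to 1.0) in JQ1. DNAJC14 shares 29.2% of its 50-base windows with another gene, and overlaps, on the same strand, a gene named RP11-762I7.5 that had 255, 391, 316 and 9 counts in DMSO, JQ1, DMSO + PHA and JQ1 + PHA. All 8 TRiC subunits were below 0 in DMSO + PHA against DMSO, as were 5877 of all 11503 genes. Their log2 ratios of FPKM ran from -0.32 to -0.13 there and lay between -0.03 and 0.13 in JQ1 + PHA against JQ1. HSPE1 was lower with PHA in both, at -0.40 (-0.47 to -0.34) and -0.24 (-0.35 to -0.13).

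Other genes of the folding pathway, 51 taken as a list with 46 past the filter, gave 1 gene 2-fold higher and 5 genes 2-fold lower in each JQ1 comparison, with a median log2 ratio of FPKM of -0.36 in both. Of all genes, 5.22% and 3.69% were 2-fold higher and 8.65% and 8% were 2-fold lower, so that at 2-fold the share lower was near, and the share higher below, that of all genes. At 1.5-fold, 39.1% and 30.4% of the 46 were lower, above the 19.3% and 17.8% of all genes. At that fold, 2.17% and 6.52% were higher, against 14.8% and 11.7% of all genes. Of 22 cochaperones and partners of HSP90 and HSP70, FKBP4, an immunophilin that brings steroid receptors to HSP90, was lower, at an FPKM of 66.7 in DMSO, 22.8 in JQ1, 50.4 in DMSO + PHA and 24.3 in JQ1 + PHA and log2 ratios of -1.55 (-1.61 to -1.48) and -1.05 (-1.12 to -0.99). GRPEL2, a nucleotide exchange factor of mitochondrial HSP70, was the gene that was higher, at an FPKM of 3.07 in DMSO, 8.58 in JQ1, 2.9 in DMSO + PHA and 7.16 in JQ1 + PHA and log2 ratios of 1.48 (1.30 to 1.68) and 1.30 (1.11 to 1.5). Its paralog GRPEL1 was at 11.4, 6.19, 9.56 and 7.98 FPKM in DMSO, JQ1, DMSO + PHA and JQ1 + PHA.

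Of 12 folding genes of the endoplasmic reticulum, 4 were 2-fold lower in both JQ1 comparisons, as were 623 of all 11503 genes. The median of the 12 was -0.68 without and -0.82 with PHA. CALR (calreticulin), a lectin chaperone for glycoproteins, had 208, 69.3, 206 and 82.7 FPKM in DMSO, JQ1, DMSO + PHA and JQ1 + PHA. PDIA6, a disulfide isomerase, had 40.9, 16, 44.8 and 17.9, and XBP1, a transcription factor of the unfolded protein response, had 5.34, 2.21, 4.97 and 1.8. SDF2L1, a partner of HSPA5, had 5.51, 0.971, 4.09 and 1.65 FPKM, with log2 ratios of the share of counts of -2.51 (-3.14 to -1.92) and -1.31 (-1.84 to -0.80). Prefoldin delivers chains to TRiC. Of 10 listed prefoldin genes and chaperonin partners, 0 passed 2-fold. Without and with PHA, 9 and 8 of them were below 0, with medians of -0.35 and -0.20. Of all 11503 genes, 5838 and 5923 were below 0. Of the remaining 6 genes of the list 2 passed the filter, CLPB and HSBP1, and neither reached 2-fold.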

How the data were processed

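Total RNA of 4 Jurkat samples was sequenced, 1 library per condition. Reads were aligned to GRCh38 with Hisat2 according to the study's methods, and the submitters' processing notes also name TopHat2 2.0.9 and Cufflinks 2.1.1. The authors deposited a table per sample with counts of reads per gene, not normalized, and FPKM, which the authors computed from the counts, a gene length and the library total (checked on 12689 genes). The counting program, its use of strand and of reads with several alignments, and the annotation release are not given in the sources used here. The labels and the methods name different library kits, the latter a stranded one, so overlapping genes on opposite strands cannot be separated with certainty, and 32 of the 67 members that passed the filter overlap another counted gene.

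Log2 ratios of FPKM were computed after 0.1 was added, for genes at a mean FPKM of 1 or more, and members past 2-fold or 1.5-fold were counted. Counting error was given by the exact 95% interval (Clopper-Pearson) of a ratio of count shares. Against a library with 3 counts or fewer, a fold is a lower bound. With 1 library per condition no test was made. Genes described are those past 2-fold, the extremes of each family, a core of stress genes, the TRiC subunits and pathway genes past 2-fold. Others were named after their values were seen. The members and lists were chosen with earlier results of these data known. Shared sequence was counted as 50-base windows of GENCODE 44 transcripts found in another gene, and promoters are from RefSeq. The steps were tested on simulated data. Tools were matplotlib 3.10.9, scipy 1.17.1, pandas 2.3.3 and numpy 2.4.6 in Python 3.11.15, with scaling factors from DESeq2 1.42.0 and edgeR 4.0.16 in R 4.3.3.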

Additional observations from a re-analysis of the deposited data

Results flagged for a closer look

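In 7 cases a member moved one way in one comparison and the other way in its counterpart, with both counting intervals excluding 0. Such cases were counted among the 67 members only, so how common they are among all genes is not known here. The difference between conditions was not tested, since each has 1 library. For JQ1, log2 ratios of the share of counts without and with PHA were 0.36 and -0.092 for BAG6, a chaperone of tail-anchored membrane proteins, and 0.53 and -0.25 for DNAJC18. For PHA, ratios in DMSO and in JQ1 were -0.21 and 0.052 for CCT3, -0.23 and 0.13 for CCT5, -0.21 and 0.17 for DNAJC16, 0.54 and -0.24 for DNAJC18, and -0.26 and 0.29 for HSPB1. DNAJC18 appears in both because the same 4 libraries enter: it had an FPKM of 1.71 in DMSO, 2.47 in JQ1, 2.49 in DMSO + PHA and 2.1 in JQ1 + PHA, low in DMSO and close to each other elsewhere. HSPB1, at 10.5, 3.94, 8.83 and 4.83 FPKM in the same order, rests on 195 to 499 counts.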

How the results depend on the processing

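No paired analysis was possible because each condition has 1 library. The counts are of members at least 2-fold higher and lower. In JQ1 against DMSO, 0 higher and 11 lower became 3 and 26 at 1.5-fold, and 16 were lower with a minimum mean FPKM of 0.1 or no filter, 9 with a minimum of 5 and 10 with a pseudocount of 1 or among protein-coding members. With FPKM rescaled to a common total 2 were higher, and with DESeq2 size factors, with a minimum mean FPKM of 0.1 or without a filter 1 was. In JQ1 + PHA against DMSO + PHA, 1 higher and 7 lower became 2 and 21 at 1.5-fold, and with a pseudocount of 1 BAG3 dropped below the line and 0 were higher. The 7 lower were 10 with a minimum of 0.1 or no filter, and 6 with a pseudocount of 1, a minimum of 5, TMM scaling, DESeq2 size factors or protein-coding members. In the PHA comparisons, both counts were 0 in both, and 1 member was higher at 1.5-fold in each. Without a filter 1 member was lower in DMSO + PHA against DMSO, and 1 was higher in JQ1 + PHA against JQ1, as with a minimum of 0.1. Alternatives chosen after seeing the data left out members with over 10% of windows shared, which left 5 and 3 of 51 lower in the JQ1 comparisons, the second a smaller share than the 8% of all genes, members with at least 50% shared, which left 10 and 7 of 66, and members with an overlapping counted gene, which left 6 and 3. The scalings moved the median gene by less than 0.1 on the log2 scale and changed the sign of at most 12 of 268 single log2 ratios, none of them larger than 0.07. No member at least 2-fold higher or lower changed sign. Family medians close to 0 did: that of BAG for JQ1 against DMSO was -0.04 and became 0.03 with FPKM rescaled, and that of HSF for JQ1 + PHA against DMSO + PHA was -0.02 and became 0.02 with TMM and 0.03 with DESeq2 size factors. In the PHA comparisons the medians of BAG, DNAJC and HSP90, each within 0.01 of 0, also changed sign under some settings. Counts set the precision, and the absence of replicate cultures is a limit that no alternative removes.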
